A study of Mus musculus with 12 samples.

Results

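The comparison concerns hearts that lacked VEGFR1 in their endothelial cells and received a virus for VEGF-B or a scramble virus. Its members are the 4 arrays labelled VEGFR1 deleted with AAV-VEGF-B (VEGFR1del_VEGFB) and the 3 labelled VEGFR1 deleted with AAV-Scramble (VEGFR1del_Scramble), 7 of the 12 arrays of the series, chosen by their titles. The mice were adult C57Bl/6J males of the genotype Cdh5-Cre-ERT2; Flt1 flox/flox, in which tamoxifen removes Flt1, the gene of VEGFR1, from cells that express Cdh5, so other cells of the heart keep the gene. The virus was an adeno-associated virus (AAV) injected intraperitoneally, and the arrays read total RNA of the heart. The other arrays were 2 wild-type hearts with AAV-VEGF-B (WT_VEGFB) and 3 wild-type hearts with AAV-Scramble (WT_Scramble), and each heart had 1 array. The labels do not give the age in weeks, the interval after injection, or the transgenes of the wild-type mice.

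VEGF-B is a ligand of the receptor tyrosine kinase VEGFR1 and of the co-receptor neuropilin 1. VEGF-A binds VEGFR1 too, but signals for sprouting mostly through VEGFR2, so VEGFR1 on the endothelium is known as a trap that holds VEGF-A back, and VEGF-B can compete with VEGF-A for it. In the heart VEGF-B is made mainly by cardiomyocytes, which burn fatty acids under control of the nuclear receptor PPAR alpha. A heart with VEGF-B virus and no endothelial VEGFR1 therefore asks which transcripts respond when the main VEGF-B receptor of the endothelium is removed.

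Signals were comparable in brightness, with array medians between 98.7 and 111.5 and 16685 to 18210 detected probes. Of 17 measured ventricular cardiomyocyte markers, the mean level spanned 13.25 to 13.31 (log2) in VEGFR1del_VEGFB hearts and 13.28 to 13.30 in VEGFR1del_Scramble hearts, as for cardiac tissue. Liver and lung lists had 4 and 2 measured genes, and Alb and Sftpc were not among them. The authors' normalized table shows 3 sets of arrays with equal value distributions. All 4 VEGFR1del_VEGFB arrays form 1 set, VEGFR1del_Scramble replicates 1 and 2 lie in another with the WT_Scramble arrays, and the library labelled VEGFR1del_Scramble replicate 3 lies with the WT_VEGFB arrays. Virus and set can therefore not be told apart in this comparison, and what a set stands for is not given in the sources used here.

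Flt1 came first as a check of the genotype labels. Its probe read 9.00, 9.36, 8.93 and 9.47 (log2 normalized signal) on the 4 VEGFR1del_VEGFB arrays, against 8.19, 8.46 and 11.56 on the VEGFR1del_Scramble arrays. The wild-type arrays read 11.51 and 11.22 with VEGF-B virus and 10.79, 10.90 and 10.91 with scramble virus. All VEGFR1del_VEGFB arrays and VEGFR1del_Scramble replicates 1 and 2 thus lay below every wild-type array, while the library labelled VEGFR1del_Scramble replicate 3 lay above all of them. A dimmer second Flt1 probe passed detection in that library and in the 5 wild-type hearts, but on none of the other 6 arrays of the comparison. On the first principal component of all genes, which held 39.5% of the variance, the VEGFR1del_VEGFB arrays lay at 17.8 to 25.4, the VEGFR1del_Scramble arrays at -11.1, -10.3 and 3.75, and the WT_VEGFB arrays at 3.91 and 1.80. Results below are on all 12 arrays, and the count of called genes in a list is also given with each of the 7 arrays left out, where 11 arrays stands for the fit without the library labelled VEGFR1del_Scramble replicate 3.

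**Figure D1:**
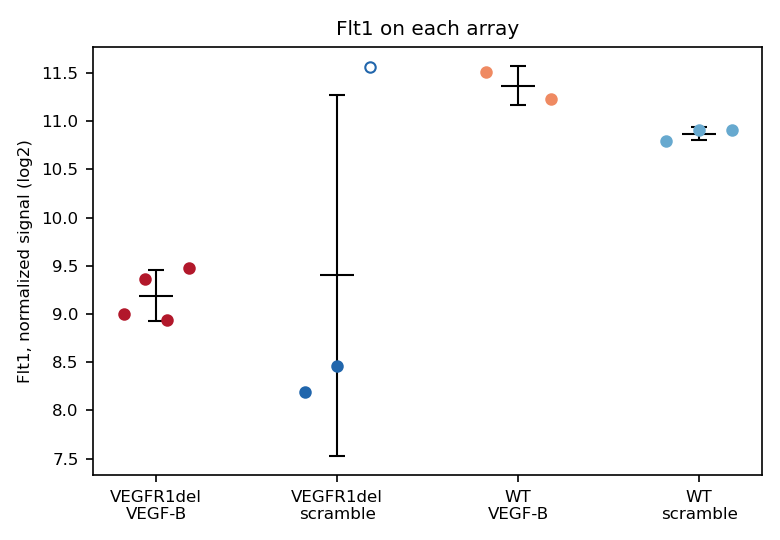
Normalized log2 signal of the main Flt1 probe on each of the 12 arrays, by group, with points for hearts and bars for the mean and SD. The open circle is the library labelled VEGFR1del_Scramble replicate 3, at 11.56, and the other 2 VEGFR1del_Scramble arrays lie at 8.19 and 8.46.

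Of 14240 measured genes, 656 (4.61%) differed between VEGFR1del_VEGFB and VEGFR1del_Scramble hearts at an adjusted p under 0.05 (limma, Benjamini-Hochberg over all genes, two-sided). The calls comprised 401 genes higher (2.82%) and 255 lower (1.79%) with VEGF-B virus, and the values of the 4 and 3 arrays did not overlap in 652 of them, against 17.8% of all genes. The calls were made on these same arrays, so the separation is no further support for them. Without the library labelled VEGFR1del_Scramble replicate 3, 1031 of 14116 genes were called (7.3%), 665 higher (4.71%) and 366 lower (2.59%). Both fits shared 569 calls, 360 higher and 209 lower. The median log2 fold change over all genes was -0.01 in either fit, and 539 of the 656 calls had a gene symbol. With 1 array per heart, these p-values rest on the spread between hearts.

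The calls lean on the first 2 scramble arrays. Without VEGFR1del_Scramble replicate 1 the count was 40 of 14170 genes, and without replicate 2 it was 28 of 14120. In both cases the library of wild-type-like Flt1 was 1 of the 2 scramble arrays left. With so few calls over all genes, a count of 0 in a list below is no result about that list. Among the VEGFR1del_VEGFB arrays, leaving out replicate 1, 2, 3 or 4 gave 238, 404, 283 or 461 calls, of 14069 to 14102 genes. The counts per list below are to be read beside these totals. Lists share members, among them Mcam, Notch3, Dll4, Nrp1 and Sox17, so counts of different lists are not separate results. Of 92 genes named here that were called, 12 were called whichever of the 7 arrays was left out, namely Sdf2l1, Esm1, Stc1, Lman1l, Col18a1, Alox12, Pdia4, Plin4, Slc27a1, Armh4, Ces1d and Kcnv2. Their highest adjusted p in these limma fits was 0.0377 to 0.0393 for Esm1, Armh4, Ces1d and Alox12. For the rest of the 12 it was 0.0497 to 0.0498, at the edge of the threshold. Acot1, whose highest was 0.0547, counted as lost. The split of calls also depends on scaling. It was 61.1% higher after quantile normalization, 95.9% after median scaling, which shifts the median of all genes to 0.12, and 86.6% in the authors' normalized values.

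The highest and lowest genes were picked among those with a symbol, called on 12 and on 11 arrays, without overlap between the groups. Lack of overlap in these genes is thus a condition of their choice. The highest rise among them belonged to Sdf2l1, an endoplasmic reticulum (ER) protein that works with the chaperone BiP. Its log2 signal was 7.35, 7.31, 7.61 and 7.65 in VEGFR1del_VEGFB hearts, against 5.82, 5.50 and 6.28 in VEGFR1del_Scramble hearts. The lowest VEGF-B array exceeded the highest scramble array by more than the range within either group, and the difference was 3.06-fold (log2 1.61, SE 0.22, adjusted p = 0.00834). Esm1, whose secreted proteoglycan marks tip cells of sprouting endothelium, read 9.63, 9.80, 9.18 and 10.03 with VEGF-B virus and 8.07, 7.75 and 8.36 with scramble virus. It rose 3.04-fold (log2 1.60, SE 0.19, adjusted p = 0.00474), and no values overlapped. Stc1, which encodes the secreted glycoprotein stanniocalcin 1, read 8.23, 8.54, 8.44 and 8.18 against 6.30, 6.87 and 7.45. Its rise was 2.78-fold (log2 1.48, SE 0.20, adjusted p = 0.00834), and the library labelled VEGFR1del_Scramble replicate 3 was the highest of the scramble arrays.

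S100a8, one subunit of the calprotectin of neutrophils, read 6.87, 7.23, 6.33 and 7.45 in VEGFR1del_VEGFB hearts, against 5.47, 4.88 and 5.75 in VEGFR1del_Scramble hearts, where it was detected on 2 of 3 arrays (log2 fold change 1.60, SE 0.32, adjusted p = 0.0204). Its partner S100a9 was not well above background on any scramble array. Its rise is therefore given as at least 2.31-fold, the mean over all 4 VEGF-B arrays set against the lowest detected signal of each scramble array (adjusted p = 0.0123). Adamtsl2, a secreted protein that binds fibrillin microfibrils, was higher by 1.22 on the log2 scale (SE 0.20). Lman1l, a relative of the ER lectin LMAN1, was higher by 1.21 (SE 0.17) but was detected on 1 of 3 scramble arrays, and a second Lman1l probe gave 0.45. Alox12, the arachidonate 12-lipoxygenase of platelets, rose by 1.13 (SE 0.14), with a second probe near background at -0.05.

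Under the same conditions of choice, the deepest fall was that of Acot1, a cytosolic acyl-CoA thioesterase. Its signal was 7.96, 8.42, 8.91 and 8.34 in VEGFR1del_VEGFB hearts, against 10.55, 10.87 and 9.83 in VEGFR1del_Scramble hearts, so the highest VEGF-B array lay below the lowest scramble array. It fell 4.04-fold (log2 -2.01, SE 0.30, adjusted p = 0.00922). A second probe fell by 1.46, and near-identical acyl-CoA thioesterase genes may share signal with either. Pdk4, the kinase that shuts off pyruvate dehydrogenase when fat is burned, read 9.53, 9.43, 10.21 and 10.56 against 11.03, 11.85 and 10.85 (log2 fold change -1.31, SE 0.29, adjusted p = 0.0261). Ucp3, an uncoupling protein of muscle mitochondria, read 4.72, 4.87, 5.51 and 4.92 against 5.92, 7.02 and 5.98 (log2 fold change -1.30, SE 0.29, adjusted p = 0.0261), and 3 of the 4 VEGF-B arrays detected it. The scramble arrays spread over more than 1 log2 unit here, with replicate 2 the highest. A second Ucp3 probe gave -0.89.

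The rest of the deep falls touched several functions. Ces1d, a lipase of the carboxylesterase family, read 10.76, 10.64, 11.01 and 11.32 with VEGF-B virus and 12.09, 12.11 and 12.13 with scramble virus. The 3 scramble arrays were nearly equal, the library of wild-type-like Flt1 included, and the fall was 2.26-fold (log2 -1.17, SE 0.14, adjusted p = 0.00474). Fbp2, the fructose bisphosphatase of muscle, fell by 1.15 (SE 0.20). Lgals4, a galectin, fell by 1.26 (SE 0.20), and C1qtnf4, a secreted C1q-like protein, fell by 1.05 (SE 0.17). Ano10, a member of the anoctamin family, fell by 1.09 (SE 0.17), Armh4 fell by 0.98 (SE 0.12), and the unconventional myosin Myo5c fell by 0.83 (SE 0.14). Gsta1, a glutathione transferase with near-identical relatives, fell by 0.86 (SE 0.16), while 2 further probes gave -0.31 and -0.24.

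**Figure D2:**
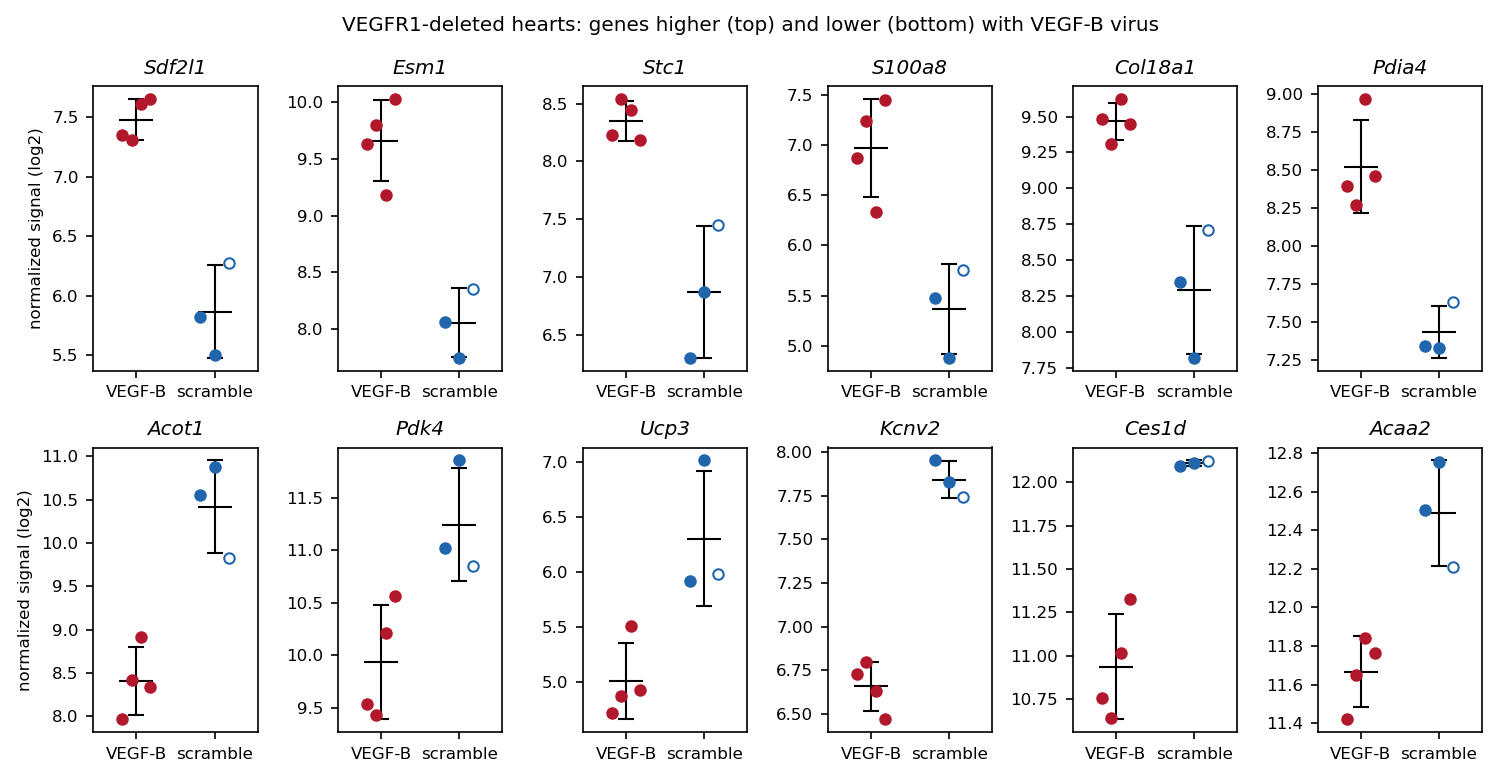
Normalized log2 signal per array of 12 genes in VEGFR1del_VEGFB (left, red) and VEGFR1del_Scramble hearts (right, blue), with the mean and SD as bars and a scale of its own for each gene. The open circle marks the library labelled VEGFR1del_Scramble replicate 3, and the groups do not overlap for any of the 12 genes. Lack of overlap was a condition when the highest and lowest genes were picked.

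Among the 10 VEGF ligands and receptors, 1 was called. Nrp1, the gene of neuropilin 1, read 11.97, 11.96, 12.12 and 12.07 in VEGFR1del_VEGFB hearts, against 11.51, 11.35 and 11.78 in VEGFR1del_Scramble hearts (log2 fold change 0.48, SE 0.11, adjusted p = 0.0258), and 2 further Nrp1 probes gave 0.32 and 0.20. The ligand and receptor count was 3 on 11 arrays, 0 without VEGFR1del_Scramble replicate 1, 0 without replicate 2, and 0, 1, 0 and 1 without VEGFR1del_VEGFB replicate 1, 2, 3 or 4. Vegfb itself read 12.59, 12.72, 12.58 and 12.43 with VEGF-B virus and 12.74, 12.69 and 12.68 with scramble virus. These values overlap (log2 fold change -0.12, SE 0.09, adjusted p = 0.495), and whether the probe reads the viral transcript is not given in the sources used here, so the arrays hold no check of the virus. Vegfa read 10.40, 10.41, 10.05 and 10.57 against 10.71, 10.14 and 10.76 (log2 fold change -0.18, adjusted p = 0.573). Vegfc, a lymphatic ligand, differed by 0.04 (adjusted p = 0.947), Flt4, the lymphatic receptor, by 0.15 (adjusted p = 0.582), and Nrp2 by 0.24 (adjusted p = 0.422). The probes of Kdr, the gene of VEGFR2, and of Pgf, placental growth factor, were at or near background on most of the 7 arrays.

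Flt1 and Vegfd depended on the doubted library. With all arrays Flt1 differed by -0.21 (SE 0.58, adjusted p = 0.875), and without that library it was higher by 0.87 in VEGFR1del_VEGFB hearts (adjusted p = 0.011). The residual Flt1 signal of the 4 VEGF-B arrays then lay above both scramble arrays. Vegfd read 6.12, 6.62, 6.71 and 6.61 against 5.91, 5.81 and 6.98, a difference of 0.28 on all arrays (adjusted p = 0.538) and of 0.66 on 11 arrays (adjusted p = 0.0292).

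Most pan-endothelial markers rose. Of 24 measured pan-endothelial markers, 15 were called higher and none lower, with a median log2 fold change of 0.51, against -0.01 over all genes. The mean level of the list was 10.18, 10.03, 10.15 and 10.12 in VEGFR1del_VEGFB hearts, against 9.51, 9.59 and 9.86 in VEGFR1del_Scramble hearts, so all 4 arrays lay above the 3. The pan-endothelial count was 18 on 11 arrays, 0 without VEGFR1del_Scramble replicate 1, 1 without replicate 2, and 5, 9, 5 and 10 without VEGFR1del_VEGFB replicate 1, 2, 3 or 4. In RNA of whole hearts, more endothelial cells and more of these transcripts per cell cannot be told apart. Vwf, the von Willebrand factor stored in endothelial granules, read 10.54, 10.64, 10.64 and 10.45 against 9.38, 10.18 and 9.75 (log2 fold change 0.80, SE 0.15, adjusted p = 0.0188). Cdh5, the cadherin of endothelial junctions whose promoter drives the Cre, read 10.26, 9.84, 10.17 and 10.30 against 9.11, 9.50 and 9.55 (log2 fold change 0.76, SE 0.14, adjusted p = 0.0156). A second Cdh5 probe gave 0.47.

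The other leading markers moved by smaller steps. Rasip1, which shapes the vascular lumen, rose by 0.65, Cd93 by 0.59, Mmrn2, the matrix partner of CD93, by 0.56, and the guidance receptor gene Robo4 by 0.46. Further Robo4 probes, each detected on 1 of 3 scramble arrays, gave 0.07 and 0.19. By vessel type, 4 of 11 measured arterial markers rose, namely Dll4, Nrp1, the gap junction gene Gja4 (0.64) and the transcription factor Sox17 (0.73). Sox17 was lost in 5 of the 7 fits without 1 array, and its second probe gave 0.45. The arterial count was 5 on 11 arrays, 0 without VEGFR1del_Scramble replicate 1, 0 without replicate 2, and 0, 2, 2 and 4 without VEGFR1del_VEGFB replicate 1, 2, 3 or 4. Of 11 capillary markers 1 rose, Plvap, the diaphragm protein of fenestrated and activated endothelium (0.77, SE 0.15). The capillary count was 3 on 11 arrays, 0 without VEGFR1del_Scramble replicate 1, 0 without replicate 2, and 1, 1, 1 and 1 without VEGFR1del_VEGFB replicate 1, 2, 3 or 4. Plvap is also a member of the endocardium list. Of 7 venous markers 1 rose, Vwf, and the median was 0.29, against 0.32 for arterial markers. The venous mean level was 7.08 to 7.30 with VEGF-B virus and 6.78 to 6.88 with scramble virus. The venous count was 2 on 11 arrays, 0 without VEGFR1del_Scramble replicate 1 and 1 without replicate 2. It was 1 without any 1 of the 4 VEGFR1del_VEGFB arrays. With 2.82% of all genes called higher, 1 call in a list is no result about the list. None of 7 lymphatic markers was called, and their mean level overlapped between groups (7.16 to 7.55 against 7.45 to 7.75).

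Tip cells are the migrating cells at the front of a vascular sprout. All 18 measured genes of the tip cell and sprouting list had a positive fold change, 10 were called higher and none lower, and the median was 0.59. On 11 arrays the median was 0.75. The tip cell count was 13 on 11 arrays, 2 without VEGFR1del_Scramble replicate 1, 1 without replicate 2, and 5, 9, 6 and 8 without VEGFR1del_VEGFB replicate 1, 2, 3 or 4. The mean level of the list ran from 8.33 to 8.49 in VEGFR1del_VEGFB hearts, against 7.59 to 8.08 in VEGFR1del_Scramble hearts, and the library of wild-type-like Flt1 was the highest of the scramble arrays. After Esm1, the smallest p belonged to Mcam, an adhesion molecule of endothelium and pericytes. It read 9.38, 9.62, 9.68 and 9.83 against 8.67, 8.43 and 8.98 (log2 fold change 0.94, SE 0.15, adjusted p = 0.0107). Unc5b, a netrin receptor of tip cells, read 8.77, 8.29, 8.57 and 8.68 against 7.35, 7.42 and 8.07 (log2 fold change 0.97, SE 0.17, adjusted p = 0.0156). Igfbp3, an IGF binding protein, rose by 0.92 (SE 0.19) and Nid1, a nidogen, by 0.51 (SE 0.10). A second Nid1 probe gave 0.31.

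Notch signalling restrains sprouting behind the tip cell. Of 11 measured Notch pathway genes, 4 rose and none fell, with a median of 0.43. The Notch count was 5 on 11 arrays, 0 without VEGFR1del_Scramble replicate 1, 0 without replicate 2, and 1, 3, 2 and 3 without VEGFR1del_VEGFB replicate 1, 2, 3 or 4. Dll4, the ligand shown by tip cells, read 6.42, 6.49, 6.35 and 6.52 in VEGFR1del_VEGFB hearts, against 5.83, 5.75 and 6.13 in VEGFR1del_Scramble hearts (log2 fold change 0.54, SE 0.11, adjusted p = 0.024). The receptor genes Notch4, of endothelium, and Notch3, of mural cells, rose by 0.56 and 0.54, and the target gene Nrarp, which feeds back on the pathway, by 0.57. A second Notch4 probe gave 0.28. Hey1, a transcriptional repressor under Notch, had 0.61 (adjusted p = 0.0984). The endothelial nitric oxide synthase gene Nos3 rose by 0.68 (SE 0.15), and Pdgfb, the signal by which endothelium recruits pericytes, by 0.63 (SE 0.16, second probe 0.37). These were the 2 called of 14 measured angiocrine factors, a list that held Edn1 (-0.07) and Igf1 (0.29) among the genes that did not pass. The angiocrine count was 3 on 11 arrays, 0 without VEGFR1del_Scramble replicate 1, 0 without replicate 2, and 0, 1, 0 and 2 without VEGFR1del_VEGFB replicate 1, 2, 3 or 4.

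Pericytes wrap capillaries. Of 11 measured pericyte markers 4 rose, with a median of 0.36, and the mean level was 8.90 to 9.02 with VEGF-B virus and 8.38 to 8.69 with scramble virus. The pericyte count was 5 on 11 arrays, 0 without VEGFR1del_Scramble replicate 1, 0 without replicate 2, and 2, 2, 2 and 2 without VEGFR1del_VEGFB replicate 1, 2, 3 or 4. Pdgfrb, the receptor for PDGF-B, read 8.90, 8.89, 8.64 and 9.01 against 7.91, 8.14 and 8.39 (log2 fold change 0.71, SE 0.13, adjusted p = 0.0156), and Higd1b rose by 0.45 (SE 0.12). The other called markers were Mcam and Notch3, which are also counted in the tip cell and Notch lists. None of 9 smooth muscle markers was called, and their mean level overlapped (8.49 to 8.74 against 8.56 to 9.01).

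The basement membrane is the sheet of collagen IV, laminin and nidogen on which vessels rest. Of its 18 measured genes, 10 rose and none fell, with a median of 0.47. The basement membrane count was 10 on 11 arrays, 1 without VEGFR1del_Scramble replicate 1, 1 without replicate 2, and 7, 8, 7 and 10 without VEGFR1del_VEGFB replicate 1, 2, 3 or 4. Col18a1, whose collagen XVIII carries endostatin, read 9.48, 9.31, 9.62 and 9.45 in VEGFR1del_VEGFB hearts, against 8.35, 7.82 and 8.71 in VEGFR1del_Scramble hearts, and rose 2.26-fold (SE 0.18 on the log2 scale, adjusted p = 0.0103). A second Col18a1 probe gave 0.43. Col15a1, its relative in capillary basement membrane, read 9.82, 9.32, 9.50 and 9.58 against 8.30, 8.28 and 8.91 (log2 fold change 1.06, SE 0.19, adjusted p = 0.0156). Sparc, a collagen-binding protein, rose by 0.73, Col4a2 by 0.70 and the laminin chain Lamc1 by 0.43. Lama5 (-0.35) and Lama2 (-0.11) did not pass.

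Of 24 interstitial matrix genes 5 rose, with a median of 0.47. The interstitial matrix count was 7 on 11 arrays, 1 without VEGFR1del_Scramble replicate 1, 0 without replicate 2, and 1, 4, 3 and 4 without VEGFR1del_VEGFB replicate 1, 2, 3 or 4. Ccn5, a matricellular protein of the CCN family, read 10.30, 10.52, 10.44 and 10.33 against 8.83, 9.26 and 9.80 (log2 fold change 1.10, SE 0.17, adjusted p = 0.0106). The others were Col6a1 (0.51), Col6a2 (0.59, second probe 0.24, not called on 11 arrays), the proteoglycan gene Bgn (0.45) and the lysyl oxidase relative Loxl1 (0.47). Col1a1 (0.85, adjusted p = 0.0854) and Col3a1 (0.92, adjusted p = 0.0597), the main fibrillar collagens, did not pass on 12 arrays. Of 15 fibroblast markers 2 rose, Meox1, a homeobox factor of activated fibroblasts (1.00), and Mgp, matrix Gla protein (0.43), while Pdgfra had 0.09 and Dcn 0.07. The fibroblast count was 3 on 11 arrays, 0 without VEGFR1del_Scramble replicate 1, 0 without replicate 2, and 0, 1, 0 and 2 without VEGFR1del_VEGFB replicate 1, 2, 3 or 4.

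**Figure D3:**
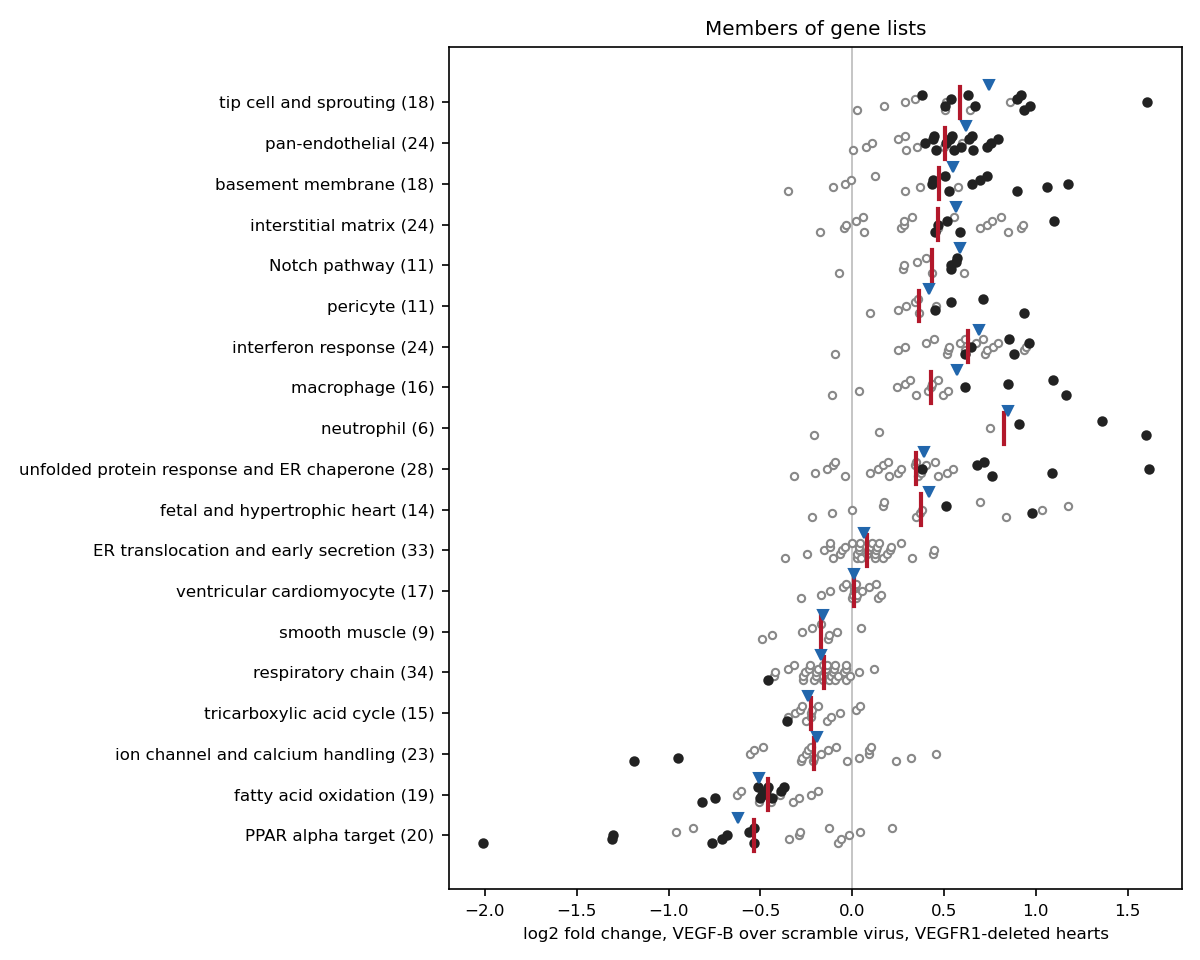
Log2 fold change of VEGF-B over scramble virus in VEGFR1-deleted hearts for each measured member of 19 gene lists, with the number measured in brackets. Filled points passed the adjusted p of 0.05 on 12 arrays, red bars are medians on 12 arrays, and blue triangles are medians on 11 arrays. Medians of the tip cell, pan-endothelial and basement membrane lists lie right of 0 and that of ventricular cardiomyocyte markers near 0, while no member of fatty acid oxidation exceeds 0.

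ER chaperones and folding enzymes rose in part. Of 28 measured genes of the unfolded protein response (UPR) list, 6 rose and none fell, with a median of 0.34. The UPR count was 8 on 11 arrays, 2 without VEGFR1del_Scramble replicate 1, 2 without replicate 2, and 3, 7, 3 and 4 without VEGFR1del_VEGFB replicate 1, 2, 3 or 4. A UPR raises chaperone genes through a promoter element, the ER stress response element (ERSE), which is read by ATF6 with the factor NF-Y. The element has the letters CCAAT, 9 bases of any kind, then CCACG. In RefSeq promoters (GRCm38.p6, 250 bases before to 50 after a start, either strand), 37 of 27025 genes held it (0.137%). Of the 26 measured UPR genes with a promoter in the table, 8 did (30.8%), as did 4 of the 6 that rose. Sdf2l1 and Pdia4, which rose most, did not hold it in this window. Members were chosen as known UPR genes, so the share in the list is no independent result. A related element, ERSE-II (ATTGG, 1 base, CCACG), was in 12 of 27025 genes (0.0444%), in 1 of the 26 UPR genes, Herpud1, and in none of the 6. The direct repeat DR1, which PPAR factors can bind (AGGTCA, 1 base, AGGTCA), was in 13 of 27025 genes (0.0481%), in none of 19 PPAR alpha targets and in none of 15 fatty acid oxidation genes with a promoter in the table. Stretches upstream of the start with the ERSE are shown, since 4 of the 6 called genes have this element in common, 5′ to 3′ along the gene, with the element in capitals, which reads CGTGG, 9 bases, ATTGG where it lies on the opposite strand.
Creld2 (chr15:88819490-88819568, plus strand): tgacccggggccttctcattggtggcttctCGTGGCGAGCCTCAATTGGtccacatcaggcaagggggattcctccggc
Ero1b (chr13:12565652-12565730, plus strand): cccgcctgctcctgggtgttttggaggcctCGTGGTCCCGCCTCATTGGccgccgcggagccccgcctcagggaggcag
Hsp90b1, nearer element (chr10:86705503-86705581, minus strand): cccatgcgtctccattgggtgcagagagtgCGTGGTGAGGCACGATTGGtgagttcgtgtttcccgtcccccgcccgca
Hsp90b1, farther element (chr10:86705608-86705686, minus strand): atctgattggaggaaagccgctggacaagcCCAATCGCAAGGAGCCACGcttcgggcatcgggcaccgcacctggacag
Syvn1 (chr19:6046502-6046575, plus strand): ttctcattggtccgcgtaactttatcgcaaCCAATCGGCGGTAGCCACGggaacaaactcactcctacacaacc
A match of letters is a description, and binding at these stretches was not measured here.

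Pdia4, a disulfide isomerase of the ER, was the strongest of the called UPR genes after Sdf2l1. It read 8.39, 8.27, 8.97 and 8.46 in VEGFR1del_VEGFB hearts, against 7.35, 7.33 and 7.64 in VEGFR1del_Scramble hearts (log2 fold change 1.09, SE 0.16, adjusted p = 0.00834). Hsp90b1, the ER chaperone GRP94 with 2 elements, read 11.65, 11.37, 11.98 and 11.61 against 10.85, 10.85 and 10.97. The 3 scramble arrays lay close together, and the rise was 0.76 (SE 0.15, adjusted p = 0.0209). Creld2, a disulfide isomerase-like protein, read 8.16, 8.12, 8.39 and 7.97 against 7.29, 7.47 and 7.58 (log2 fold change 0.72, SE 0.16, adjusted p = 0.0262). Ero1b, the ER oxidase, was detected on 2 of 3 scramble arrays, rose by 0.68 (SE 0.16) on 12 arrays and missed the threshold on 11 (adjusted p = 0.0575). Syvn1, the ubiquitin ligase of ER-associated degradation, rose by 0.38 (SE 0.09).

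Hspa5, the gene of BiP, read 5.53, 4.99, 5.15 and 5.34 against 4.59, 4.66 and 5.12, was detected on 1 of 3 scramble arrays and had 0.46 (adjusted p = 0.101), and 0.63 without the doubted library (adjusted p = 0.0271). Dnajc3, its co-chaperone with the same element, had 0.52 (adjusted p = 0.0657) and on 11 arrays 0.63 (adjusted p = 0.0382). Calr, calreticulin, had 0.55 (adjusted p = 0.142) and Pdia6 0.27 (adjusted p = 0.439), so 4 of the 8 UPR genes with the element passed on 12 arrays. The other 5 measured genes with an ERSE, which lie outside the list, had fold changes between -0.35 and 0.15, and none passed. The members that moved were chaperones, folding enzymes and degradation. The stress-induced transcription factor genes Atf4 and Ddit3 had -0.11 and 0.40 and did not pass. None of 33 genes of ER translocation and early secretion passed (median 0.08), nor did any of 11 cytosolic heat shock genes.

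Fatty acid oxidation moved the other way. All 19 measured enzymes of the pathway had a negative fold change, 10 fell and none rose, and the median was -0.46. On 11 arrays the median was -0.51. The fatty acid oxidation count was 15 on 11 arrays, 0 without VEGFR1del_Scramble replicate 1, 0 without replicate 2, and 5, 5, 4 and 9 without VEGFR1del_VEGFB replicate 1, 2, 3 or 4. The mean level of the list was 10.85, 10.94, 10.94 and 10.98 in VEGFR1del_VEGFB hearts, against 11.45, 11.49 and 11.23 in VEGFR1del_Scramble hearts, where the library of wild-type-like Flt1 was the lowest. After median scaling the 19 signs stayed negative, 1 gene passed and the median was -0.37. Acaa2, the thiolase of the last step of the cycle, read 11.42, 11.65, 11.84 and 11.76 against 12.51, 12.75 and 12.21 (log2 fold change -0.82, SE 0.13, adjusted p = 0.0111), and its 3 further probes fell by 0.64 to 0.87.

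Acadl, the long-chain acyl-CoA dehydrogenase, read 9.81, 9.77, 9.68 and 9.82 against 10.33, 10.45 and 10.04 (log2 fold change -0.50, SE 0.10, adjusted p = 0.0233). Acads, its short-chain relative, fell by 0.44 (SE 0.09). The enoyl-CoA isomerases Eci1 and Eci2 fell by 0.49 (SE 0.10) and 0.47 (SE 0.10), and Etfdh, which passes the electrons on to ubiquinone, by 0.46 (SE 0.10). Further Etfdh probes gave -0.25, -0.30 and -0.47. Cpt1b, the gate of fatty acid entry in muscle mitochondria, had -0.18 (adjusted p = 0.231) and Acadm, the medium-chain enzyme, -0.29 (adjusted p = 0.154).

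Targets of PPAR alpha include Acot1, Pdk4 and Ucp3 described above. Of 20 measured targets 9 fell and none rose, with a median of -0.54, and the mean level was 8.32 to 8.55 with VEGF-B virus and 8.82 to 9.16 with scramble virus. The PPAR alpha count was 11 on 11 arrays, 3 without VEGFR1del_Scramble replicate 1, 2 without replicate 2, and 3, 3, 7 and 7 without VEGFR1del_VEGFB replicate 1, 2, 3 or 4. Slc27a1, a fatty acid transport protein, read 8.14, 8.20, 8.22 and 8.14 in VEGFR1del_VEGFB hearts, against 8.74, 9.10 and 8.98 in VEGFR1del_Scramble hearts (log2 fold change -0.76, SE 0.11, adjusted p = 0.00834). Plin4, a lipid droplet coat protein, read 10.66, 10.87, 10.89 and 10.95 against 11.57, 11.42 and 11.59 (log2 fold change -0.68, SE 0.10, adjusted p = 0.00834). Here the library of wild-type-like Flt1 was as high as the other scramble arrays. Creg1 fell by 0.54 (SE 0.12). Angptl4, an inhibitor of lipoprotein lipase, had -0.96 (adjusted p = 0.0724), Plin2 had -0.35, and Fabp3, the fatty acid binding protein of heart, had 0.04.

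Of 24 genes of lipid uptake and storage 3 fell, Ces1d, Slc27a1 and Agpat2, an acyltransferase of triglyceride synthesis that fell by 0.44 (SE 0.10). A second Agpat2 probe gave -0.27. The lipid uptake count was 6 on 11 arrays, 2 without VEGFR1del_Scramble replicate 1, 2 without replicate 2, and 2, 2, 3 and 2 without VEGFR1del_VEGFB replicate 1, 2, 3 or 4. Those on 11 arrays were 5 lower and 1 higher. Lpl had 0.03 and Gpihbp1, which anchors lipoprotein lipase on capillaries, 0.34. Retnla, a secreted protein of adipose tissue and macrophages, fell by 1.11 (SE 0.25) and was detected on 3 of 4 VEGF-B arrays. It was the only called member of 4 measured adipocyte markers, whose mean level was 5.98 to 6.22 with VEGF-B virus and 6.26 to 6.78 with scramble virus, while Adipoq, Plin1 and Cidec did not pass the detection filter. The part of adipose tissue in the falls of lipid genes was not tested.

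Other mitochondrial pathways had medians nearer to 0. Of 15 tricarboxylic acid cycle genes 1 fell, Mdh2, the mitochondrial malate dehydrogenase (by 0.35, SE 0.09), with a median of -0.22. The tricarboxylic acid cycle count was 2 on 11 arrays, 0 without VEGFR1del_Scramble replicate 1, 0 without replicate 2, and 0, 0, 0 and 0 without VEGFR1del_VEGFB replicate 1, 2, 3 or 4. Of 34 respiratory chain genes 1 fell, Ndufb5 of complex I (by 0.46, SE 0.12), which missed the threshold on 11 arrays (adjusted p = 0.092), and the median was -0.15. The respiratory chain count was 2 on 11 arrays, 0 without VEGFR1del_Scramble replicate 1, 1 without replicate 2, and 0, 0, 0 and 0 without VEGFR1del_VEGFB replicate 1, 2, 3 or 4. With 1.79% of all genes called lower, 1 of 34 is near the background. Of 24 genes of glucose use, Fbp2 alone was called on 12 arrays. The glucose use count was 3 on 11 arrays, 0 without VEGFR1del_Scramble replicate 1, 0 without replicate 2, and 1, 1, 1 and 1 without VEGFR1del_VEGFB replicate 1, 2, 3 or 4.

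Cardiomyocyte transcripts split. None of the 17 contractile markers was called, and their fold changes spanned -0.28 to 0.16. Of 14 genes of the fetal and hypertrophic program 2 rose. Ankrd1, a stress-responsive titin-binding protein, read 14.38, 14.27, 14.52 and 14.24 in VEGFR1del_VEGFB hearts, against 13.85, 13.72 and 13.95 in VEGFR1del_Scramble hearts (log2 fold change 0.51, SE 0.10, adjusted p = 0.0199), and a second probe gave 1.05. Nppa, atrial natriuretic peptide, read 14.42, 13.53, 13.89 and 13.85 against 13.35, 12.36 and 13.13 (log2 fold change 0.98, SE 0.23, adjusted p = 0.0337), with VEGF-B replicate 1 the highest and scramble replicate 2 the lowest. Nppb (0.84), Acta1 (1.03) and Myh7 (1.17), the fetal myosin, had large values that did not pass (adjusted p = 0.159, 0.0505 and 0.0879). The fetal program count was 3 on 11 arrays, 0 without VEGFR1del_Scramble replicate 1, 0 without replicate 2, and 1, 2, 1 and 2 without VEGFR1del_VEGFB replicate 1, 2, 3 or 4. Beside Nppa, the atrial markers Myl4 and Mybphl had -0.11 and 0.15, Stard10 fell by 0.62 (SE 0.10), and the part of atrial tissue was not tested.

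Of 23 genes of ion channels and calcium handling 2 fell, both of potassium channels. Kcnv2, a silent subunit that modifies other potassium channels, read 6.73, 6.80, 6.63 and 6.47 against 7.95, 7.83 and 7.75 (log2 fold change -1.19, SE 0.17, adjusted p = 0.00834). Kcnd2, a pore subunit of the transient outward current, read 7.49, 7.31, 7.17 and 8.03 against 8.61, 8.38 and 8.36 (log2 fold change -0.95, SE 0.19, adjusted p = 0.0188). Scn4b, a sodium channel beta subunit outside that list, fell by 0.99 (SE 0.24), with a second probe at -0.29. Kcnip2, the partner of Kcnd2, had -0.53 (adjusted p = 0.0934). The ion channel count was 2 on 11 arrays, 1 without VEGFR1del_Scramble replicate 1, 1 without replicate 2, and 2, 2, 2 and 2 without VEGFR1del_VEGFB replicate 1, 2, 3 or 4.

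Some immune transcripts rose, with uneven levels among the VEGF-B hearts. Of 16 macrophage markers 4 rose, with a median of 0.43 and a mean level of 7.14, 7.04, 7.65 and 7.48 in VEGFR1del_VEGFB hearts, against 6.67, 6.75 and 7.13 in VEGFR1del_Scramble hearts. Fcgr4, an Fc receptor, read 7.21, 6.85, 8.17 and 7.25 against 5.72, 6.15 and 6.74 (log2 fold change 1.17, SE 0.30, adjusted p = 0.0436). Lgals3, galectin 3, read 8.22, 8.02, 9.10 and 8.51 against 6.97, 7.33 and 7.81 (log2 fold change 1.09, SE 0.27, adjusted p = 0.0415). In both VEGF-B replicate 3 was the highest. The macrophage count was 5 on 11 arrays, 0 without VEGFR1del_Scramble replicate 1, 0 without replicate 2, and 0, 4, 0 and 0 without VEGFR1del_VEGFB replicate 1, 2, 3 or 4. Adgre1, a surface receptor of macrophages, rose by 0.85 (SE 0.21) and Ms4a7 by 0.61 (SE 0.16), while Mrc1 had 0.03 and Timd4, of resident macrophages, -0.11. A second Adgre1 probe gave 0.54. Cd52, a surface glycoprotein of leukocytes, rose by 1.08 (SE 0.27), and a second probe, detected on no scramble array, gave 0.76.

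Of 6 measured neutrophil markers 3 rose, S100a8, S100a9 and Il1b. Il1b was not well above background on any scramble array and was at least 1.43-fold higher (adjusted p = 0.0164). The other 8 of 14 neutrophil genes, Ly6g, Mpo and Elane among them, did not pass the detection filter, and Csf3r had 0.14. The neutrophil count was 3 on 11 arrays, 0 without VEGFR1del_Scramble replicate 1, 0 without replicate 2, and 3, 3, 3 and 3 without VEGFR1del_VEGFB replicate 1, 2, 3 or 4. Of 9 markers of T and NK cells 2 rose. Ccl5, a chemokine detected on 1 of 3 scramble arrays, read 6.25, 5.74, 7.67 and 5.64 against 4.85, 4.74 and 5.14 (log2 fold change 1.42, adjusted p = 0.0472), and was not called on 11 arrays (adjusted p = 0.0522). Thy1, also found on fibroblasts, rose by 0.74 (SE 0.13), and Cd3e had 0.45 (adjusted p = 0.45). The T and NK cell count was 1 on 11 arrays, 0 without VEGFR1del_Scramble replicate 1, 0 without replicate 2, and 1, 2, 2 and 2 without VEGFR1del_VEGFB replicate 1, 2, 3 or 4. Of 6 mast cell markers Kit alone rose (0.63), while Cma1 had -0.13. The mast cell count was 1 on 11 arrays, 0 without VEGFR1del_Scramble replicate 1, 0 without replicate 2, and 0, 1, 0 and 0 without VEGFR1del_VEGFB replicate 1, 2, 3 or 4.

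Of 24 interferon-responsive genes 5 rose, with a median of 0.63, and 23 had a positive fold change. Oasl2, an oligoadenylate synthetase-like protein, read 8.79, 8.66, 8.82 and 8.33 against 7.74, 7.48 and 7.85 (log2 fold change 0.96, SE 0.16, adjusted p = 0.0125), while 2 further Oasl2 probes gave 0.27 and 0.03. Oasl1 rose by 0.88, Ifit2 by 0.86, Ifitm3, which blocks viral entry, by 0.64, and Ifi27 by 0.62. The interferon count was 6 on 11 arrays, 0 without VEGFR1del_Scramble replicate 1, 0 without replicate 2, and 3, 5, 3 and 12 without VEGFR1del_VEGFB replicate 1, 2, 3 or 4. Of 16 antigen presentation genes H2-D1 alone rose (0.67, SE 0.18), and signal of near-identical class I genes may be shared. Further H2-D1 probes gave 0.72 and 0.32. The list averaged 8.49, 8.44, 9.45 and 8.30 in VEGFR1del_VEGFB hearts, against 7.91, 8.16 and 8.26 in VEGFR1del_Scramble hearts, with VEGF-B replicate 3 about 1 unit above the other VEGF-B arrays. The antigen presentation count was 3 on 11 arrays, 0 without VEGFR1del_Scramble replicate 1, 0 without replicate 2, and 0, 0, 0 and 4 without VEGFR1del_VEGFB replicate 1, 2, 3 or 4.

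The library labelled VEGFR1del_Scramble replicate 3 lay between the groups at most genes that responded. For the 1031 genes called without it, its position was expressed as a percent of the way, with 0 at the mean of scramble replicates 1 and 2 and 100 at the mean of the VEGF-B arrays. The median position was 53.4% (quartiles 32.4% and 73.7%), and 971 genes lay above 0. These genes were selected for a difference between the VEGF-B arrays and scramble replicates 1 and 2, so an array outside the fit tends to lie nearer to the VEGF-B mean. No value for an array without a difference is at hand, and the position is a description only.

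**Figure D4:**
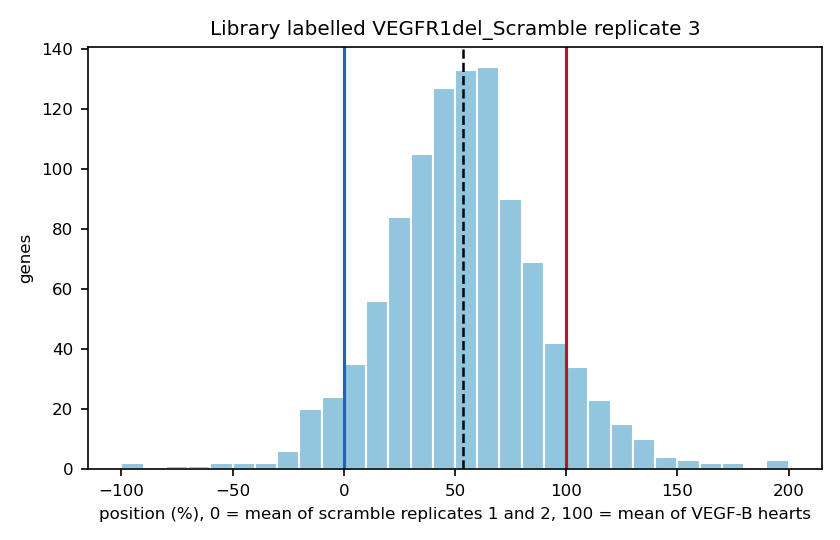
Histogram of the position of the library labelled VEGFR1del_Scramble replicate 3 for 1031 genes called on the other 11 arrays, in percent of the way between the mean of VEGFR1del_Scramble replicates 1 and 2 (blue line, 0) and the mean of VEGFR1del_VEGFB (red line, 100). The dashed line is the median of 53.4%, and values beyond the axis are drawn in its end bins.

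Besides Flt1, 4 genes shifted most when that library was left out. Gpam, a glycerol phosphate acyltransferase, read 6.22, 6.42, 6.46 and 6.13 in VEGFR1del_VEGFB hearts, against 7.18, 7.59 and 5.99 in VEGFR1del_Scramble hearts, which gave -0.61 on 12 arrays (adjusted p = 0.235) and -1.08 on 11 (adjusted p = 0.00424). Plac8 gave 0.84 (adjusted p = 0.125) and 1.29 (adjusted p = 0.00708). Kctd12b gave 0.90 (adjusted p = 0.0837) and 1.33 (adjusted p = 0.00397), and Apold1, an early response gene of endothelium, 1.04 (adjusted p = 0.162) and 1.47 (adjusted p = 0.0476). Further Kctd12b probes gave 0.59 and 0.16 on 12 arrays. For all 4 the library lay within or near the range of the VEGF-B hearts. The genes were picked for this shift, so that position follows from the choice and is no separate result about the library.

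The same virus was also given to wild-type hearts, and the difference between the 2 responses was tested as an interaction. No gene passed on 12 arrays (0%) or on 11 (0%) in limma, while 718 of 14240 had an unadjusted p under 0.05 on 12 arrays, and eBayes with trend and robust settings called none either. The 2 comparisons share no array. In wild type too, the scramble and VEGF-B arrays lie in different sets of the authors' table. Virus and set can therefore not be told apart in either genotype, and an equal sign in both is no independent check of the virus. Of the 656 genes called in VEGFR1-deleted hearts, 629 (95.9%) had the same sign in wild type, against 67.9% of all genes, and 141 were called there too. For genes called higher, the median log2 fold change was 0.57 in VEGFR1-deleted hearts, against 0.51 in wild type. For genes called lower it was -0.52 against -0.24. Genes picked by their change in one genotype tend to lie nearer to 0 in the other. For the 249 genes called higher in wild type the medians were 0.50 in VEGFR1-deleted hearts, against 0.77 in wild type, and for the 35 called lower, -0.30 against -0.70. With 2 wild-type VEGF-B hearts the interaction has wide errors, so a p above the threshold does not show that responses were equal.

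The following genes were picked for the size of their difference. Esm1 rose by 1.60 in VEGFR1-deleted hearts, against 2.82 in wild type (difference -1.22, adjusted p = 0.975), and Ccn5 by 1.10 against 1.94 (difference -0.84, adjusted p = 0.975). With scramble virus Esm1 read 8.07 and 7.75 in VEGFR1del_Scramble replicates 1 and 2 and 8.36 in the library labelled replicate 3. It read 6.05, 5.98 and 5.67 in WT_Scramble hearts, and 8.70 and 8.75 in WT_VEGFB hearts. Sdf2l1 had 1.61 in VEGFR1-deleted hearts, against 0.64 in wild type (difference 0.97, adjusted p = 0.976), Pdia4 1.09 against 0.34 (adjusted p = 0.975) and Lman1l 1.21 against 0.07 (adjusted p = 0.975). Ano10 had -1.09 against -0.06 (adjusted p = 0.975). By list, the median for fatty acid oxidation was -0.46 in VEGFR1-deleted hearts, against -0.20 in wild type, for the UPR 0.34 against 0.24, for tip cells 0.59 against 0.91 and for PPAR alpha targets -0.54 against -0.47. No gene of these lists passed the interaction test.

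**Figure D5:**
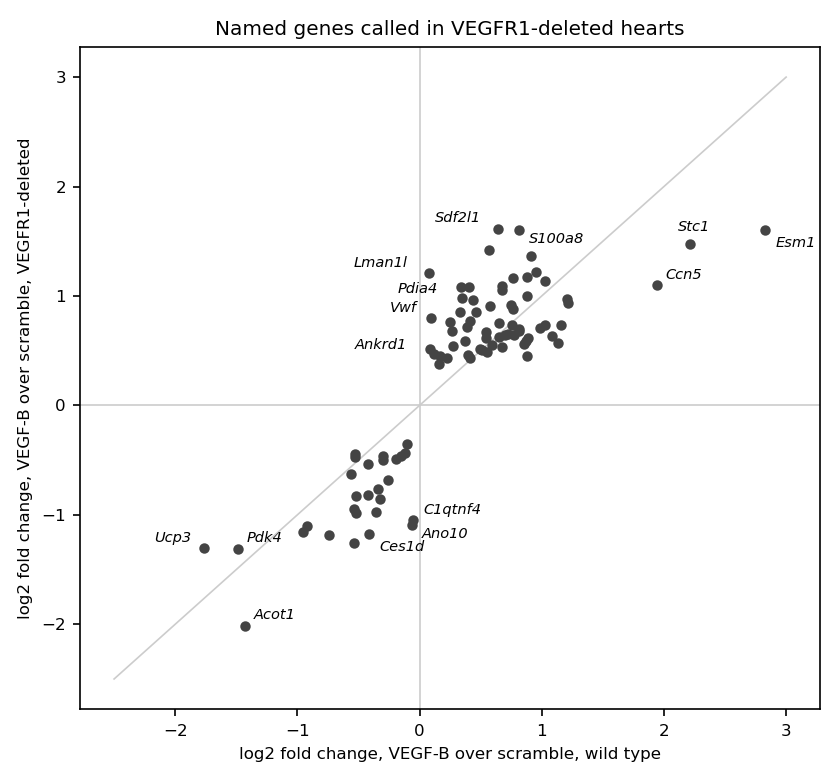
Log2 fold change of VEGF-B over scramble virus in VEGFR1-deleted hearts (vertical axis) against that in wild-type hearts (horizontal axis) for the 92 named genes called in VEGFR1-deleted hearts, with the line of equal response in grey. Esm1, Stc1 and Ccn5 lie below the line, and Sdf2l1, Lman1l and Pdia4 above it.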

How the data were processed

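Total RNA of 12 mouse hearts was read on Illumina bead arrays, 1 array per heart, and 7 hearts enter this comparison. Per the file headers, the deposited non-normalized table holds for each probe the average bead intensity and a detection p-value, with no normalization by the authors. The authors also deposited a normalized table, taken as log2 values from their range, whose method is not given in the sources used here. Probes were named from GEO's platform annotation, with 34885 probes having 1 symbol, 18 several and 10378 none.

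From the intensities, limma 3.58.1 in R 4.3.3 applied normexp background correction from the detection p-values, an offset of 16, quantile normalization over 12 arrays and log2 (neqc). Probes with a detection p under 0.05 on at least 2 arrays were kept, 20312 of 45281, and the probe with the highest mean stood for each gene (14240). One mean per group was fitted with lmFit and eBayes, p-values were two-sided and Benjamini-Hochberg adjusted over all genes, and the threshold was 0.05. The whole procedure was repeated on 11 arrays. The number of arrays limits the precision. The procedure was tested on simulated data.

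The genes named were the 15 highest and 15 lowest called genes with a symbol, up to 6 called per list by p, all VEGF ligands and receptors, up to 10 from the interaction and the 5 that shifted most without the doubted library. List members given by value beside these, and the remaining genes with an ERSE, were chosen after their values were seen. The members and the 50 lists were chosen with earlier results of these data known. Alternatives covered background, scaling, filter, probe choice, the model, arrays left out and the authors' values. Figures were drawn with matplotlib 3.10.9.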

Additional observations from a re-analysis of the deposited data

Results flagged for a closer look

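In 105 genes and 49 list means, the 4 VEGFR1del_VEGFB arrays were examined for 1 array far from the other 3, by the gap to its nearest neighbour as a share of the whole range, against Dixon's 95% critical value. Chance marks about 1 in 20 such groups. Adamtsl2 had a gap of 0.857, with replicate 4 lowest at 6.61 (log2) and the others at 7.08 to 7.16. Gsta1 had 0.983, with replicate 4 highest at 7.02. Flt4 had 0.902, with replicate 4 highest at 5.65 and the others at 5.12 to 5.17. Col6a1 had 0.835, with replicate 1 highest at 10.93, and Eci1 had 0.902, with replicate 1 lowest at 11.64.

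Replicate 3 stood highest in 4 list means. T and NK cell markers had a gap of 0.926 (6.83, the others 5.86 to 5.93), chemokines 0.852 (7.61, the others 6.70 to 6.84), antigen presentation 0.832 (9.45, the others 8.30 to 8.49) and amino acid and one-carbon synthesis 0.913 (6.88). Replicate 1 stood highest for fibroblast markers, with 0.850 (8.60, the others 8.21 to 8.27), and replicate 4 for glucose use and glycolysis, with 0.861 (10.32).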

How the results depend on the processing

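The count of 656 genes (401 higher, 255 lower) moved with most choices. It was 184 (116 and 68) on the 7 VEGFR1-deleted arrays alone and 1080 (630 and 450) with no background correction. With an offset of 50 alone it was 1019 (609 and 410). Normexp without negative controls was run at that offset of 50 too, and gave 1028 (630 and 398). It was 1050 (1007 and 43) with median scaling, 1770 (1533 and 237) in the authors' values, 1030 (595 and 435) with trend and robust settings and 1307 (779 and 528) at an adjusted p of 0.1. Leaving out 1 array gave 28 to 1031 calls, 19 to 665 higher and 9 to 366 lower. The interaction count, 0, ran from 0 to 1 over the same fits, the 1 being an unnamed probe. Flt1, -0.21, turned to 0.0681 with array weights and ran from -0.82 to 0.87 when 1 array was left out. Of 92 named called genes none changed direction in any of the 26 settings that measured it, and Il1b was missing from 1. The genes were picked as called on arrays that these settings reuse, so a kept direction is no further support. Only 12 of the 92 kept their call whichever of the 7 VEGFR1-deleted arrays was left out. Of 1225 list medians recomputed, 1137 stayed within 1 SD and 51 changed sign, among them lipid uptake and storage, -0.06, which was 0.05 with median scaling. The SD is that of the list's mean level between hearts of the same VEGFR1-deleted group, not of the median. It was as wide as 0.42 for antigen presentation, and some of the settings left out a wild-type array only. Replicate numbers in the labels are not stated to pair hearts. Same-numbered deviations correlated at 0.115, -0.0358 and -0.00764, and with the replicate number as a block 370 genes passed (253 higher, 117 lower), 301 of them shared. With the authors' set as a random block 604 passed. Each group, but for the doubted library, lies in 1 set, so this fit cannot separate set from virus. Apart from the settings named, the cause of these moves was not tested. Probes at background, Kdr and Pgf among them, limit what can be read.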
